A study of Mus musculus with 8 samples.

Results

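The C/EBP genes (Cebpa, Cebpb, Cebpd, Cebpe, Cebpg and Cebpz) and Gfi1 were followed by name through a time course of PU.1 restoration in a mouse leukaemia, and all 7 were found among the 12830 genes of the deposited tables. Each of the 7 also passed the filter on low counts, which left 12330 genes for testing. Their lowest count in any library was 519, for Cebpb. The cells were AML410, an acute myeloid leukaemia with a monosomal karyotype, and all 4 groups share its background. It lacks p53. Its PU.1, the product of Spi1, is held down by a short hairpin RNA linked to green fluorescent protein (GFP), and doxycycline (Dox) shuts that hairpin off so that endogenous PU.1 can return.

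The C/EBP proteins are transcription factors of the basic leucine zipper (bZIP) class. They bind DNA as pairs of any of the bZIP members, and in bone marrow they drive granulocyte development in sequence: C/EBPα at the entry to the granulocyte and monocyte lineage, C/EBPε in the later formation of secondary granules, and C/EBPβ and C/EBPδ in emergency, monocytic and late myeloid programmes. C/EBPγ lacks an activation domain and acts largely through its partners, and Cebpz, despite its name, encodes a CCAAT-binding protein outside the bZIP class. Gfi1 is a zinc finger repressor that favours the granulocyte over the monocyte fate, in part by opposing PU.1.

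Leukaemic C57BL/6 recipients were left untreated or given Dox for 2, 4 or 6 days, and GFP-positive cells were then sorted from their bone marrow. The sort gate moved with time: high GFP in untreated mice, high to mid at day 2, mid at day 4 and low on day 6, so days on Dox and GFP gate cannot be told apart. Each group held 2 libraries, named technical replicates in the titles but described as duplicate mice in the design text. All come from 1 leukaemia, and p-values cover no more than the spread between such samples, which may be technical. Totals ran from 9262047 to 11213292 counts per library, and in day 2 replicate 1 a single gene without a symbol took 13.3% of them. Levels are given as CPM (counts scaled to library size) after scaling by the trimmed mean of M values (TMM), as mean ± SD with n = 2, and fold changes come from the edgeR quasi-likelihood test adjusted over all genes tested, with a threshold of 0.05.

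Spi1, the gene that Dox restores, was checked first. It stood at 8.34 and 12.9 CPM in the untreated libraries, 14.8 and 15.6 at day 2, 94.0 and 102.7 at day 4 and 216.9 and 228.7 on day 6. Its log2 fold change against untreated was 0.52 (SE 0.17, edgeR adjusted p = 0.103) at day 2, 3.21 at day 4 and 4.39 on day 6. Counts of Trp53, the p53 gene, remained in every library (untreated mean 63.8 ± 1.59 CPM, day 6 mean 41.9 ± 1.22). Whole-gene counts are no check of its deletion.

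Markers of cell types moved with time as well. The summed CPM of the 9 mature neutrophil markers was 144.3 to 149.3 in untreated cells and 1212 to 1466 at day 6, that of the 11 monocyte and macrophage markers went from 5058 to 5562 up to 10899 to 11330, and that of 6 progenitor markers (of 7 listed) from 782.4 to 860.5 down to 210.1 to 219.8. The most abundant gene of these sums over all libraries was Mmp8 for neutrophils, Ly6c2 for monocytes and macrophages and Myb for progenitors. Myb alone went from 546 ± 53.2 CPM in untreated cells to 125.9 ± 0.552 at day 6. Some of these markers are also in the gene lists below. Csf3r and Mmp8 (neutrophil) are genes that C/EBP factors are known to drive. Csf1r (monocyte) is a gene that Gfi1 is known to repress. Csf3r and the progenitor markers Myb and Hlf are among the C/EBP partners and regulators. At day 2 the neutrophil sum was already 167.4 to 173.4, the monocyte and macrophage sum 6906 to 7678 and the progenitor sum 716.3 to 750.4. At day 4 these sums were 558.3 to 612.7, 12381 to 12982 and 319 to 344.5 in the same order. The monocyte and macrophage sum was thus higher at day 4 than at day 6. These sums moved alongside the results of all 3 days below, and their part in them was not tested. In bulk RNA, fewer cells of a type and less RNA per cell cannot be told apart. The 3 T and NK cell markers in the tables (of 10 listed, with Nkg7 the most abundant) summed to 112.6 to 132.9 in untreated cells, 187.6 to 215.9 at day 2, 114.7 to 121.8 at day 4 and 94.3 to 106.1 by day 6. The 9 B cell markers summed to 43.0 to 81.7 without Dox, 128.6 in day 2 replicate 1 and 24.1 in replicate 2, 25.7 to 29.8 at day 4 and 51.8 to 59.1 by day 6. The 6 erythroid markers (of 10, with Tfrc the most abundant) lay between 69.5 and 152.4 over all libraries. Over all libraries the summed CPM of mast cell, basophil and eosinophil markers (9 of 10) lay between 25.3 and 79.1, of megakaryocyte markers (3 of 6) between 32.7 and 68.2, of dendritic cell markers (5 of 7) between 19.8 and 30.7, and of stroma and endothelium markers (4 of 8) between 121.3 and 233.6.

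By day 6 the members had parted. Cebpa and Gfi1 were lower than in untreated cells, Cebpb, Cebpd, Cebpe and Cebpg were higher, and Cebpz did not pass the test. At day 2, 1 of the 7 passed (Cebpa, lower), against 6.13% of all genes in either direction and 1.95% that were lower. At day 4, 6 passed, against 48.0% of all genes: Cebpb, Cebpd and Cebpg rose, and Cebpa, Cebpe and Gfi1 fell. At day 6, 6 passed again, against 63.6% of all genes, with 4 higher (32.0% of all genes were higher) and 2 lower (31.6% were lower). In a test for any difference between the 4 groups 6 of the 7 passed, as did 65.1% of all genes. The median log2 fold change of the 7 was -0.09 at day 2, -0.09 at day 4 and 0.30 on day 6, beside 0.00, -0.02 and -0.04 for all genes tested. Between successive days, 6 members passed from day 2 to day 4 (37.6% of all genes) and 2, Cebpd and Cebpe, from day 4 to day 6 (29.9%), both higher.

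The changes of the members were moderate in size for this time course. At day 6 the median absolute log2 fold change of all genes was 0.52, and 27.0% of genes had changed more than 2-fold. Among all genes, ranked by the size of the day 6 change, Cebpa was at the percentile 74.2, Gfi1 at 71.4, Cebpd at 62.3, Cebpe at 58.9, Cebpb at 49.2, Cebpg at 32.8 and Cebpz at 12.7. At day 4 the largest changes among the members were those of Gfi1 (percentile 84.5), Cebpa (78.5) and Cebpb (76.3).

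**Figure D1:**
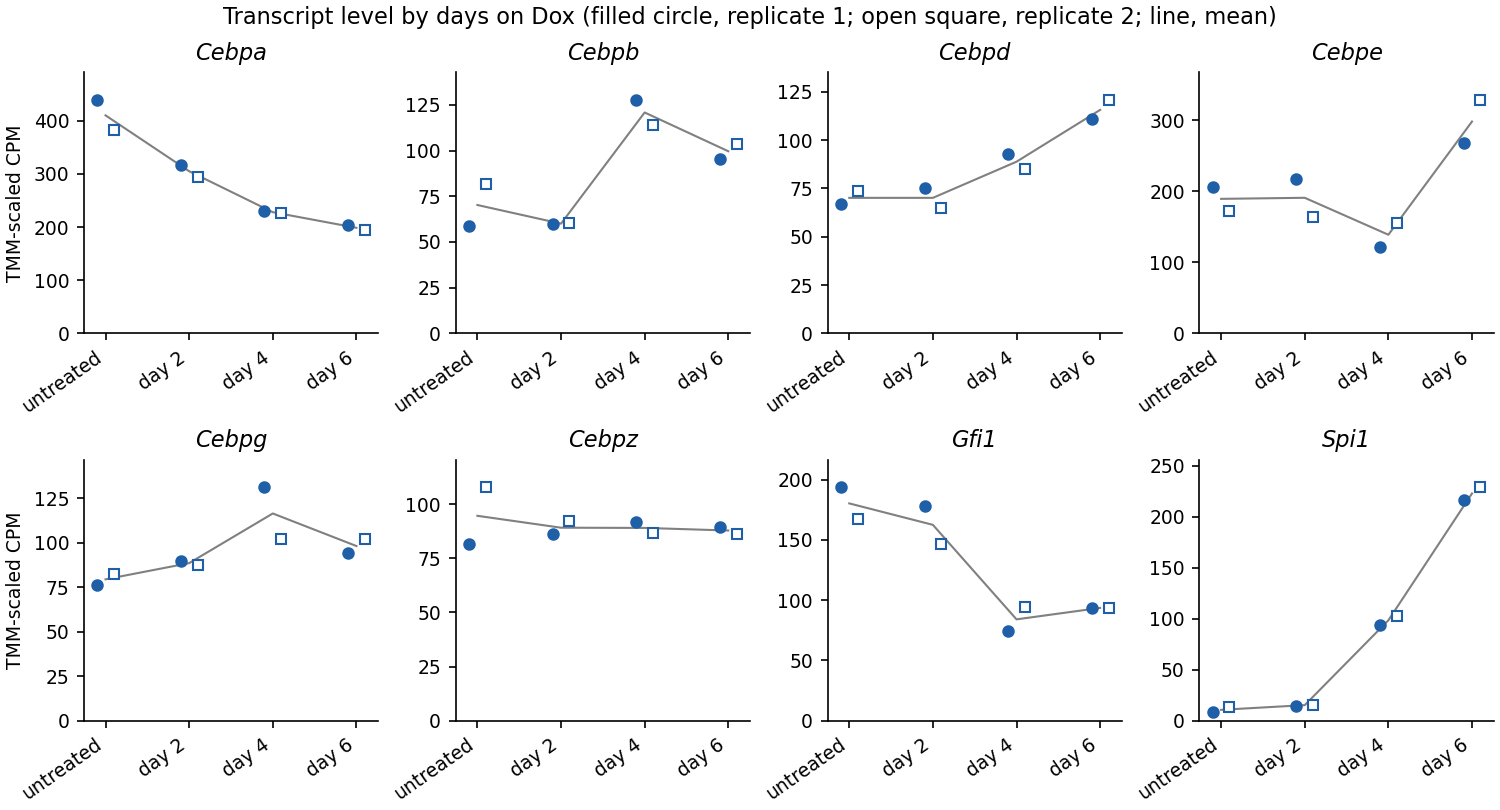
Transcript levels of the 7 members and of Spi1, in TMM-scaled CPM on the y axis, against group on the x axis; filled circles are replicate 1, open squares replicate 2, and the line joins the means. Cebpa falls from 410.3 to 198.7 on average while Cebpd rises from 70.1 to 115.6, Gfi1 drops between day 2 and day 4, and Cebpe is lowest at day 4 and highest at day 6.

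Scaling bears on these directions. With total counts in place of TMM the median log2 fold change of all genes moves to -0.47 at day 6, and the calls there split into 2078 higher and 6647 lower, against 3942 higher and 3897 lower with TMM. At day 4 the split on total counts is 1816 higher and 4519 lower, against 3217 and 2707, and at day 2 it is 170 and 658, against 516 and 240. On that scale the day 6 values of Cebpb (0.07), Cebpd (0.29) and Cebpe (0.22) no longer passed, Cebpg turned to -0.13, and Cebpz passed at -0.54. At day 4 Cebpd (0.09) and Cebpg (0.30) no longer passed, nor did the steps of both from day 2 to day 4. From day 4 to day 6 Cebpa (-0.38), Cebpb (-0.46) and Cebpg (-0.43) passed as lower, and Cebpe as higher. Taken relative to the shifted median, the day 6 values were -1.01 for Cebpa, -0.91 for Gfi1, 0.54 for Cebpb, 0.76 for Cebpd, 0.69 for Cebpe, 0.34 for Cebpg and -0.07 for Cebpz. The falls of Cebpa and Gfi1 passed under both scalings at days 4 and 6.

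Cebpa, the factor of granulocyte-monocyte commitment (gene 12606, chromosome 7, 35119293 to 35121928, plus strand, mm10), fell at each step. Its libraries stood at 438.8 and 381.9 CPM in untreated cells, 316.9 and 293.4 at day 2, 230.3 and 225.9 at day 4, and 203.6 and 193.9 on day 6. Every library of a group lay below every library of the group before it. The log2 fold change against untreated was -0.43 at day 2 (SE 0.08, edgeR adjusted p = 0.0127), -0.85 at day 4 (SE 0.08, edgeR adjusted p = 7.34e-06) and -1.05 at day 6 (SE 0.08, edgeR adjusted p = 7.45e-07), a 2.06-fold fall with a 95% interval of -1.23 to -0.86 on the log2 scale. It was the one member called at day 2. Spi1 did not pass there (0.52, SE 0.17), but its day 2 libraries lay above the untreated ones, so the calls give no order in time. For Cebpa the step from day 2 to day 4 was -0.42 (edgeR adjusted p = 0.00207). That from day 4 to day 6 was -0.20 and missed the threshold (edgeR adjusted p = 0.0978). The day 2 call ended without day 2 replicate 2 (-0.37, edgeR adjusted p = 0.0876) and in a fit of the 2 groups alone (-0.44, edgeR adjusted p = 0.0729). The step from day 4 to day 6 passed without untreated replicate 1 or 2 (edgeR adjusted p = 0.0366 and 0.0367).

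Cebpg, the inhibitory bZIP partner (gene 12611, chromosome 7, 35046422 to 35056566, minus strand), is the annotated neighbour of Cebpa, 62727 bases away, and did not follow it. Its levels were 76.2 and 82.6 CPM in untreated cells, 89.8 and 87.2 at day 2, 131 and 101.8 at day 4, and 94.1 and 102 on day 6. All 6 Dox libraries were above both untreated libraries. The log2 fold change was 0.55 at day 4 (SE 0.11, edgeR adjusted p = 0.00154) and 0.30 at day 6 (SE 0.11, edgeR adjusted p = 0.0316). At day 2 it was 0.16 (edgeR adjusted p = 0.453, 95% interval -0.09 to 0.40). The day 4 value rested in part on replicate 1, without which it was 0.36 (edgeR adjusted p = 0.0141), and the day 2 to day 4 step of 0.40 (edgeR adjusted p = 0.0147) then fell to 0.20 (edgeR adjusted p = 0.150). That step was also lost without day 2 replicate 2 (0.38, edgeR adjusted p = 0.0620). The day 6 call was lost without day 6 replicate 1 (0.36, edgeR adjusted p = 0.0591), day 6 replicate 2 (0.25, edgeR adjusted p = 0.179) or untreated replicate 1 (0.25, edgeR adjusted p = 0.127), and its sign turned on total counts. From day 4 to day 6 Cebpg did not pass (-0.25, edgeR adjusted p = 0.113), but it did without day 4 replicate 2 (-0.41, edgeR adjusted p = 0.0118).

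The promoters of this pair, which moved in opposite directions, and of Gfi1, which fell with Cebpa, are shown from RefSeq (GRCm38.p6, the same build as mm10) as the 250 bases before the annotated start, 5′ to 3′ on the strand of the gene. Of the 7 members, 4 matched the promoter table (Cebpa, Cebpb, Cebpg and Gfi1, the last with 2 starts), and Cebpd, Cebpe and Cebpz are named only. Both strands were searched for the letters GAGGAA (a PU.1 core), TTGCG (a C/EBP core) and AATCAC (the Gfi1 core), and capitals mark a match. The windows are chr7:35119043-35119292 (plus) for Cebpa, chr7:35056567-35056816 (minus) for Cebpg and chr5:107725806-107726055 (minus) for the first start of Gfi1.
Cebpa: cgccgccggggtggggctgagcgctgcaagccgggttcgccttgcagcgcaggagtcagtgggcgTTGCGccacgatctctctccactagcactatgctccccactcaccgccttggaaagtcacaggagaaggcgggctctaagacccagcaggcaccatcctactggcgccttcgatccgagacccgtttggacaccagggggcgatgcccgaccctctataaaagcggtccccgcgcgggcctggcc
Cebpg: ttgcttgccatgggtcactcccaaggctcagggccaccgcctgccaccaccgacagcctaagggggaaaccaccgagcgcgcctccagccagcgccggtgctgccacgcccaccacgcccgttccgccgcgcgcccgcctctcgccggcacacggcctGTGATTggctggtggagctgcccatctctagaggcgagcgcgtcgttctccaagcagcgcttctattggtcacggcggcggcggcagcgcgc
Gfi1: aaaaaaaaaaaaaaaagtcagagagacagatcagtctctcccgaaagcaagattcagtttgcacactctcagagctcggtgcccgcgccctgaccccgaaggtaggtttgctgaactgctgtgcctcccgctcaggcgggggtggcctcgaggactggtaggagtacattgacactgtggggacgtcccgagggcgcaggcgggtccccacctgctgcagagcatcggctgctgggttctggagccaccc
The Cebpa window holds TTGCG at bases 185 to 181 before the start, and the Cebpg window holds AATCAC on the opposite strand, read here as GTGATT, at bases 92 to 87 before the start. These letters were found in neither Gfi1 window nor in that of Cebpb, which says nothing of the factors themselves. None of the 5 windows holds GAGGAA. Among the 32851 RefSeq promoter windows of this length, 23.3% hold GAGGAA, 14.5% TTGCG and 9.14% AATCAC, so such matches are common. The GC content was 66.4% for Cebpa, 70.8% for Cebpg, 81.6% for Cebpb and 59.2% for the first Gfi1 start.

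Gfi1, the repressor that opposes PU.1 (gene 14581, chromosome 5, 107716655 to 107725805, minus strand), was lower from day 4 on. It stood at 193.4 and 167.1 CPM in untreated cells, 178.1 and 146.7 at day 2, 74.0 and 94.1 at day 4, and 93.5 in both day 6 libraries. The day 4 and day 6 libraries all lay below all untreated and day 2 libraries, and the day 2 libraries overlapped the untreated ones. Against untreated the log2 fold change was -0.15 at day 2 (SE 0.12, edgeR adjusted p = 0.507), -1.10 at day 4 (SE 0.12, edgeR adjusted p = 2.39e-05) and -0.95 at day 6 (SE 0.12, edgeR adjusted p = 4.56e-05). The fall came between day 2 and day 4 (-0.95, SE 0.13, edgeR adjusted p = 1.15e-04), the interval in which Spi1 rose by 2.69 on the log2 scale. From day 4 to day 6 Gfi1 missed the threshold (0.15, edgeR adjusted p = 0.395, 95% interval -0.13 to 0.44). The day 4 and day 6 calls held without any single library.

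The balance of both falling genes to Spi1 is free of library scaling. Per length, Gfi1 was 10.8 and 6.03 times as abundant as Spi1 in the untreated libraries, 5.62 and 4.38 times at day 2, 0.366 and 0.427 times at day 4 and 0.201 and 0.190 times on day 6. The ratio of Cebpa to Spi1 per length was 26.6 and 15.0 in untreated libraries, 10.9 and 9.50 at day 2, 1.24 and 1.11 at day 4, and 0.475 and 0.429 on day 6. Each library had lower ratios than every library of the group before it, and on the log2 scale the rise of Spi1 was larger than either fall.

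Cebpb and Cebpd, the members tied to emergency and late myeloid programmes, both rose, and were called at days 4 and 6. Cebpb (gene 12608, chromosome 2, 167688915 to 167690432, plus strand) stood at 58.7 and 81.7 CPM in untreated cells, 59.9 and 60.2 at day 2, 127.5 and 114.1 at day 4, and 95.5 and 103.6 on day 6. The day 4 and day 6 libraries lay above all earlier ones, and the day 6 libraries lay below both day 4 libraries. The log2 fold change was 0.78 at day 4 (SE 0.13, edgeR adjusted p = 4.06e-04) and 0.50 at day 6 (SE 0.13, edgeR adjusted p = 0.00530). The day 2 to day 4 step of 1.01 (SE 0.13, edgeR adjusted p = 1.01e-04) was the largest rise of a member in that interval. From day 4 to day 6 the value was -0.28 (edgeR adjusted p = 0.123), which passed without untreated replicate 1 or 2 (edgeR adjusted p = 0.0181 and 0.0184). The untreated libraries of Cebpb differed: without replicate 1 the day 6 value was 0.29 and the day 2 value -0.44 (edgeR adjusted p = 0.0194), and without replicate 2 they were 0.76 and 0.03.

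Cebpd (gene 12609, chromosome 16, 15887286 to 15889545, plus strand) rose in both later steps. Its libraries stood at 66.7 and 73.5 CPM in untreated cells, 75.4 and 64.7 at day 2, 92.6 and 85.0 at day 4, and 110.7 and 120.6 on day 6. The untreated and day 2 libraries overlapped, and both later groups lay above them and apart from each other. The log2 fold change was 0.34 at day 4 (SE 0.10, edgeR adjusted p = 0.0119) and 0.72 at day 6 (SE 0.10, edgeR adjusted p = 4.66e-05), a 1.65-fold rise. The steps were 0.35 from day 2 to day 4 (edgeR adjusted p = 0.0153) and 0.38 from day 4 to day 6 (edgeR adjusted p = 0.0111). The day 4 call was lost without day 4 replicate 1 (0.28, edgeR adjusted p = 0.0814) or untreated replicate 1 (0.28, edgeR adjusted p = 0.0585). The first step was lost without day 2 replicate 2 (0.24, edgeR adjusted p = 0.140) or day 4 replicate 1 (0.28, edgeR adjusted p = 0.0994), and the second without day 4 replicate 2 (0.33, edgeR adjusted p = 0.0686) or day 6 replicate 2 (0.33, edgeR adjusted p = 0.111). On total counts both steps lost their call (0.28 and 0.20, edgeR adjusted p = 0.116 and 0.276).

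Cebpe, the factor of secondary granule formation (gene 110794, chromosome 14, 54710363 to 54712174, minus strand), went down before it went up. It stood at 206.1 and 172.5 CPM in untreated cells, 217.4 and 164.3 at day 2, 121.6 and 156 at day 4, and 268.1 and 328.1 on day 6. The day 2 libraries spanned the untreated ones, the day 4 libraries lay below all others, and the day 6 libraries lay above all others. The log2 fold change was -0.45 at day 4 (SE 0.16, edgeR adjusted p = 0.0341) and 0.66 at day 6 (SE 0.15, edgeR adjusted p = 0.00307). The rise from day 4 to day 6 was 1.10 (SE 0.16, edgeR adjusted p = 4.58e-04), the largest of any member in that interval, and it held without any single library. The dip was weaker: the day 4 call was lost without day 4 replicate 1 (-0.27, edgeR adjusted p = 0.254), without untreated replicate 1 (-0.31, edgeR adjusted p = 0.198) and in DESeq2 (-0.45, adjusted p = 0.120). The day 2 to day 4 step (-0.46, edgeR adjusted p = 0.0396) was lost without day 2 replicate 1 (-0.25, edgeR adjusted p = 0.268), without day 4 replicate 1 (-0.29, edgeR adjusted p = 0.266) and in DESeq2 (-0.47, adjusted p = 0.124).

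Cebpz (gene 12607, chromosome 17, 78919003 to 78937070, minus strand) stood at 81.7 and 107.8 CPM in untreated cells, 86.1 and 92.3 at day 2, 91.7 and 86.6 at day 4, and 89.5 and 86.2 on day 6. The 6 Dox libraries lay between the 2 untreated ones. No comparison passed, and the day 6 log2 fold change was -0.11 (edgeR adjusted p = 0.426, 95% interval -0.36 to 0.14). The spread of the untreated pair limits this: without untreated replicate 1 the day 4 and day 6 values were -0.27 (edgeR adjusted p = 0.0213) and -0.29 (edgeR adjusted p = 0.0115), and without replicate 2 they were 0.13 and 0.11.

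**Figure D2:**
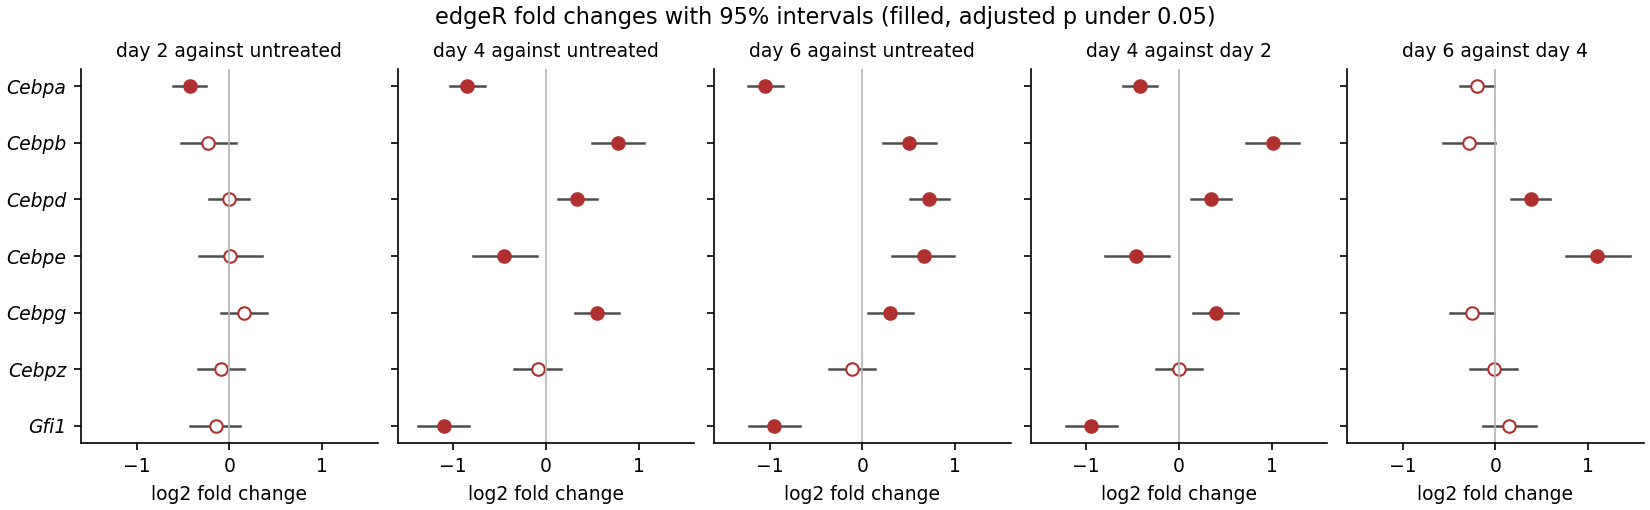
Log2 fold changes of the 7 members (x axis) in 5 comparisons, one panel each, with 95% intervals as bars; filled points had an edgeR adjusted p under 0.05. Cebpa and Gfi1 lie left of 0 at days 4 and 6, and Cebpe turns from -0.45 at day 4 to 0.66 at day 6.

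Levels were set beside each other per length, as reads per kilobase of the deposited gene length and per unit of library size on the TMM scale (RPKM). In untreated cells Cebpa (155.7 ± 15.3) and Cebpe (152.9 ± 19.2) led and overlapped. Gfi1 (63.0 ± 6.49), Cebpb (46.7 ± 10.8), Cebpd (31.0 ± 2.12), Cebpz (23.2 ± 4.54) and Cebpg (16.9 ± 0.961) followed in that order, and no libraries of these neighbours overlapped. At day 2 the order was Cebpe (154.1 ± 30.3), Cebpa (115.8 ± 6.30), Gfi1 (56.7 ± 7.73), Cebpb (39.9 ± 0.176), Cebpd (31.0 ± 3.35), Cebpz (21.9 ± 1.06) and Cebpg (18.8 ± 0.390), with no overlap between neighbours.

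By day 4 Gfi1 had moved below Cebpb and Cebpd. The order there was Cebpe (112.1 ± 19.6), Cebpa (86.5 ± 1.19), Cebpb (80.3 ± 6.28), Cebpd (39.3 ± 2.36), Gfi1 (29.4 ± 4.97), Cebpg (24.8 ± 4.39) and Cebpz (21.9 ± 0.882), and Cebpg overlapped both Gfi1 and Cebpz. At day 6 Cebpe stood alone at 240.8 ± 34.3, above Cebpa (75.4 ± 2.60), Cebpb (66.2 ± 3.83), Cebpd (51.2 ± 3.10), Gfi1 (32.7 ± 0.00489), Cebpz (21.6 ± 0.569) and Cebpg (20.9 ± 1.19), the last 2 overlapping. Among all tested genes, ranked by level per length, Cebpe was at the percentile 97.1 in untreated cells and 97.6 at day 6, Cebpa went from 97.2 to 90.1 and Gfi1 from 90.5 to 76.5.

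The make-up of the bZIP C/EBP transcripts does not depend on how libraries are scaled, since each share is taken within a library. Cebpa made up 38.6 ± 1.82% of the summed RPKM of the 5 bZIP genes without Dox, 32.3 ± 1.86% at day 2, 25.2 ± 0.746% at day 4 and 16.7 ± 2.03% on day 6. Cebpe made up 37.9 ± 2.83%, 42.7 ± 3.67%, 32.7 ± 5.21% and 52.9 ± 2.91% in the same order. The 2 shares overlapped in untreated cells, while in the day 6 libraries the ratio of Cebpe to Cebpa per length was 2.80 and 3.60.

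Cebpb made up 11.7 ± 3.28% in untreated cells, 11.2 ± 1.30% in day 2 cells, 23.4 ± 2.20% at day 4 and 14.6 ± 0.434% at day 6. Cebpd went from 7.71 ± 0.921% to 11.3 ± 0.304% at day 6, and Cebpg from 4.20 ± 0.453% to 7.23 ± 1.39% at day 4 and 4.60 ± 0.142% at day 6. The sum itself was 403.1 ± 20.6 RPKM without Dox, 359.6 ± 40.2 at day 2, 343 ± 5.42 at day 4 and 454.4 ± 39.8 on day 6. In an exact permutation test of each share over the 4 groups (2520 assignments, smallest possible p 0.00952), p was 0.00952 for Cebpa, 0.0190 for Cebpg, 0.0286 for Cebpe, 0.0476 for Cebpd and 0.0571 for Cebpb. Adjusted over the 5 shares by Benjamini-Hochberg, these permutation p-values were 0.0476 for Cebpa, Cebpg and Cebpe and 0.0571 for Cebpd and Cebpb. The shares of a library sum to a fixed total, so the 5 tests are not independent.

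**Figure D3:**
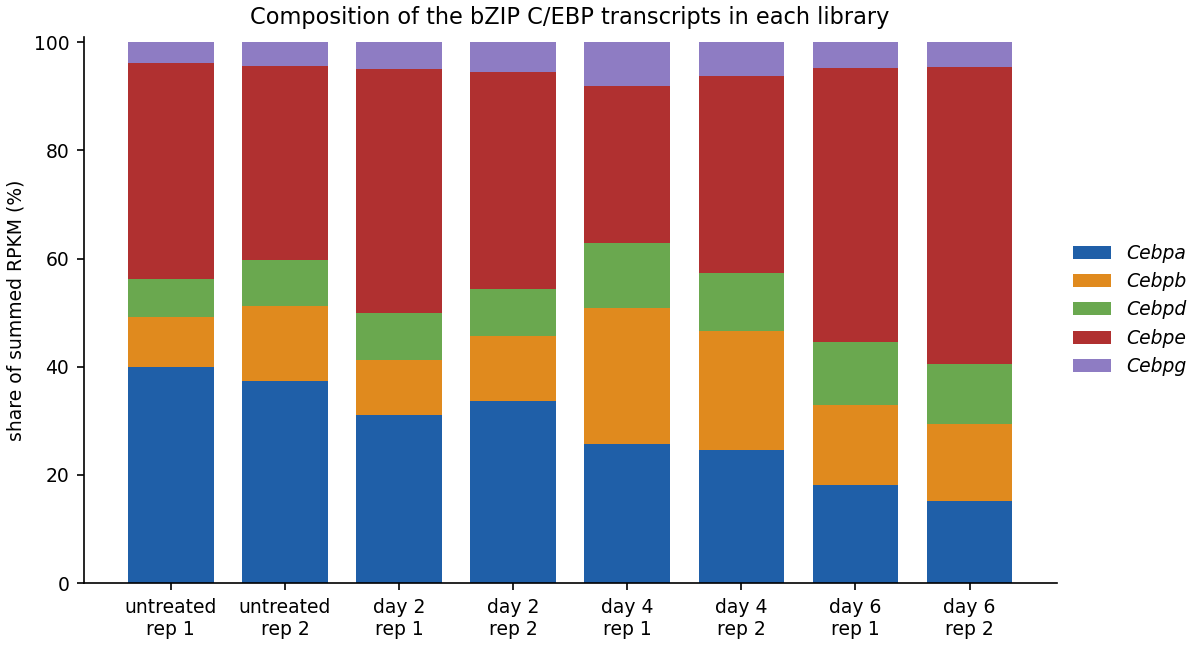
Share (%, y axis) of each of the 5 bZIP C/EBP genes in their summed RPKM, one stacked bar per library (x axis). The Cebpa segment shrinks from a mean of 38.6% to 16.7% and the Cebpe segment grows from 37.9% to 52.9%, while the Cebpb segment is widest at day 4.

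Some annotated genes overlap the members on the opposite strand in GENCODE M21, and no source used here gives the strand setting of the counting, so reads of such pairs cannot be told apart. Cebpd shares 1808 bases with Spidr, a DNA repair gene, which was at -0.27 at day 6 (edgeR adjusted p = 0.00995) while Cebpd rose. That call of Spidr was lost in DESeq2 (-0.26, adjusted p = 0.0790), and without day 6 replicate 2 its value was -0.24. Cebpz shares 1301 bases with Cebpzos (0.11 at day 6, edgeR adjusted p = 0.652), and Cebpb shares 908 bases with Tmem189 (0.27 at day 6, edgeR adjusted p = 0.0240), although in RefSeq Tmem189 lies 27371 bases away. The Tmem189 call was lost in DESeq2 (0.28, adjusted p = 0.0740). Its value was 0.17 without day 6 replicate 2 and 0.22 without untreated replicate 2. Antisense or non-coding genes overlap Cebpa by 313 bases, Gfi1 by 880 and Cebpg by 353. On its own strand Cebpg also shares 1140 bases with an intronic non-coding gene and 617 bases with an unconfirmed one. None of these was among the tested genes. Cebpb is a gene of 1 exon, Cebpe of 2, and Gfi1 transcripts have 4 to 7.

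The nearest tested neighbours moved with the members in some places and against them in others. Lrp3, a receptor gene 78950 bases from Cebpa, was low and fell with it, from 3.15 and 3.27 CPM in the untreated libraries to 0.454 and 0.390 at day 4 (-2.89, edgeR adjusted p = 5.30e-04), and at day 6 it had no counts in replicate 1 and 0.324 CPM in replicate 2. Pepd, a dipeptidase gene 1714 bases from Cebpg, rose with it at day 4 (0.64, edgeR adjusted p = 3.23e-04) and day 6 (0.47, edgeR adjusted p = 0.00207; 0.04 on total counts). Ndufaf7, a mitochondrial complex assembly gene that starts 36 bases from Cebpz, rose by 0.86 and 0.90 at days 4 and 6 (edgeR adjusted p = 1.09e-04 and 4.93e-05), where Cebpz did not pass. The 2 neighbours of Cebpe differed: 1700123O20Rik, at 19621 bases, fell at day 4 (-0.38, edgeR adjusted p = 0.00187) and rose from day 4 to day 6 (0.25, edgeR adjusted p = 0.0365), as Cebpe did, whereas the amino acid transporter gene Slc7a8 at 10041 bases rose by 1.0 at day 4, when Cebpe was lower, and by 1.55 at day 6. Beside Cebpd, Mzt2 at 23917 bases fell by 1.01 at day 6. Beside Cebpb, the phosphatase gene Ptpn1 at 240318 bases was up by 1.24 at day 6. On either side of Gfi1, Rpap2 fell by 0.64 and Evi5 rose by 0.93 at day 6.

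For each member that differed between groups, the 3 genes most like it in pattern were taken by Pearson correlation of log2 CPM over the 8 libraries, among 9100 candidate genes. With 4 groups behind 8 points and the candidates searched for the highest values, the coefficients only describe likeness. Cebpa was most like Uros, a haem synthesis gene (0.993), Isca1, an iron-sulphur cluster gene (0.990), and Man1a2 (0.988). Isca1 went from 30.7 ± 3.14 CPM in untreated cells to 14.2 ± 0.101 at day 6, a log2 fold change of -1.11 beside -1.05 for Cebpa.

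Cebpe was most like the phosphodiesterase gene Pde2a (0.996), Wfdc21 (0.987) and the interferon-inducible GTPase gene Igtp (0.983). Pde2a followed it library by library, with 247.1 and 217.4 CPM in untreated cells, 259.9 and 192.9 at day 2, 158.5 and 190.1 at day 4 and 320.3 and 376.9 on day 6. In all 4 groups the library higher in Cebpe was also the one higher in Pde2a. Gfi1 was most like Ddx42 (0.992), Ces2e (0.985) and Ubash3a (0.984). Ubash3a, a negative regulator of T cell receptor signalling, was at -1.11 at day 4 and -0.96 at day 6, close to the -1.10 and -0.95 of Gfi1, whereas Ddx42 moved by only -0.16 and -0.14 and did not pass.

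Cebpb was most like Cbfa2t3 (0.972), Cd1d1 (0.971) and Hspbap1 (0.971), Cebpd like Kbtbd7 (0.990), Ppp1r12c (0.986) and Sipa1l2 (0.984), and Cebpg like Rhoq (0.958), Nagpa (0.957) and the endoplasmic reticulum chaperone gene Hsp90b1 (0.952). Hsp90b1 was at 762.2 ± 15.3 CPM untreated, 914 ± 29.9 at day 2, 1103 ± 101.2 at day 4 and 962.8 ± 11.1 on day 6, with its highest library (1175 CPM) the same day 4 replicate 1 that was highest in Cebpg. Cbfa2t3, a co-repressor of the ETO family, went from 10.8 ± 3.95 to 33.8 ± 2.11 CPM at day 4 and 29.2 ± 0.146 at day 6.

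Partners and regulators of the C/EBP proteins moved in both directions. Of 22 tested (23 listed), 8 rose and 5 fell at day 4 (36.4% and 22.7%; 26.1% and 22.0% of all genes), and 11 rose and 7 fell at day 6 (32.0% and 31.6% of all genes). The list's median log2 fold change was -0.14 at day 4 and 0.21 at day 6, beside -0.02 and -0.04 for all genes. On total counts the split was 2 up and 11 down at day 4 and 5 up and 9 down at day 6, with medians of -0.39 and -0.23. Spi1 belongs to this list.

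Csf3r, the G-CSF receptor gene, went from 67.3 ± 0.347 CPM in untreated cells to 161.7 ± 5.0 at day 4 and 268.2 ± 15.8 at day 6 (log2 fold change 2.00, SE 0.08, edgeR adjusted p = 2.23e-09). Jdp2, a bZIP factor of the AP-1 group that can pair with C/EBP proteins, went from 21.3 ± 2.32 to 68.9 ± 4.63 at day 6 (1.70, SE 0.14, edgeR adjusted p = 7.26e-07). Myb, a progenitor factor, fell from 546 ± 53.2 to 125.9 ± 0.552 CPM (-2.12, SE 0.09, edgeR adjusted p = 6.33e-09), and the bZIP gene Atf5 fell from 45.0 ± 0.726 to 19.0 ± 0.0832 (-1.24, SE 0.10, edgeR adjusted p = 1.07e-06). The stress-induced partners Ddit3 (-0.02) and Atf4 (0.12) did not pass at day 6, and they are named here because they pair with C/EBP proteins.

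The Tribbles genes Trib1 and Trib2 encode pseudokinases that bring C/EBPα to the ubiquitin ligase COP1 for degradation. Trib1 fell at day 2 and rose at day 6: its mean was 65.8 ± 1.07 CPM untreated, 42.2 ± 8.19 at day 2, 59.6 ± 4.23 at day 4 and 153.1 ± 16.4 on day 6. The log2 fold change was -0.63 at day 2 (SE 0.12, edgeR adjusted p = 0.0147; not called in a fit of the 2 groups alone) and 1.22 at day 6 (SE 0.12, edgeR adjusted p = 3.34e-06). Trib2 was low (2.67 ± 1.28 CPM untreated, 0.986 ± 0.439 at day 6), and its day 6 value of -1.42 passed narrowly (edgeR adjusted p = 0.0470), but not in DESeq2 (adjusted p = 0.0716) nor without untreated replicate 1 (-0.82, edgeR adjusted p = 0.315). Dbp was also low and fell by 1.26 at day 6, with that call lost without day 6 replicate 2 (-1.0, edgeR adjusted p = 0.0725).

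Partners and co-repressors of Gfi1 numbered 15 tested of 17 listed. At day 4, 2 rose and 4 fell (13.3% and 26.7%; 26.1% and 22.0% of all genes), and at day 6, 3 rose and 6 fell (of all genes 32.0% and 31.6%), with list medians of -0.03 and -0.07. On total counts the day 6 split was 1 up and 11 down, with a median of -0.51. Rcor2, a CoREST-family scaffold, fell by 4.35 at day 6 from 5.86 ± 1.43 to 0.277 ± 0.0860 CPM, while its relative Rcor1 went from 50.5 ± 2.74 to 76.9 ± 0.753 (0.61, SE 0.09, edgeR adjusted p = 8.09e-05; 0.17 on total counts). Smyd2, a lysine methyltransferase, fell from 32.4 ± 0.232 to 6.99 ± 0.967 CPM (-2.21), Prmt1 by 0.72 and Ajuba, at 1.6 ± 0.70 CPM in untreated cells, by 2.24. Cbfa2t3 rose by 1.43 and Arih2 by 0.63 (0.20 on total counts). The demethylase gene Kdm1a (-0.06) and the deacetylase gene Hdac1 (0.02), central to Gfi1 repression, did not pass at day 6.

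Of 13 tested genes that Gfi1 is known to repress (16 listed), 5 rose and 1 fell at day 4 (38.5% and 7.69%; 26.1% and 22.0% of all genes), and 6 rose and 3 fell at day 6 (46.2% and 23.1%; 32.0% and 31.6% of all genes). The list's median was 0.10 at day 4 and 0.29 at day 6. On total counts the split was 4 up and 4 down on both days, with medians of -0.16 and -0.15. Csf1r, the macrophage colony-stimulating factor receptor gene, rose from 35.7 ± 5.58 to 918.1 ± 2.02 CPM at day 4 and 978.7 ± 41.3 at day 6 (4.78, SE 0.17, edgeR adjusted p = 1.25e-09). Klf4, a monocyte factor, rose from 16.4 ± 1.32 to 245.1 ± 7.63 at day 4 and 198.6 ± 7.72 at day 6. At day 2 the list gave 2 up and 2 down (15.4% and 15.4%, beside 4.18% and 1.95% of all genes), with a median of -0.05. Csf1r and Klf4 had risen by then, by 1.61 and 1.18 on the log2 scale (edgeR adjusted p = 3.05e-04 and 0.00142). Egr1 and Id1 were lower at day 2, at -0.88 and -0.54 (edgeR adjusted p = 0.0191 and 0.0120). Gfi1 itself was then at -0.15 (95% interval -0.42 to 0.11), and a link between these changes was not tested.

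Id2, an inhibitor of bHLH factors, rose from 27.4 ± 3.77 to 163.1 ± 5.87 CPM at day 6 (2.57, SE 0.19, edgeR adjusted p = 4.28e-07). The genes that fell were Egr1, from 54.4 ± 4.01 to 13.4 ± 0.701 CPM (-2.02, SE 0.20, edgeR adjusted p = 5.32e-06), Irf8, a monocyte factor, from 1428 ± 239.4 to 604.9 ± 15.0 (-1.24, SE 0.12, edgeR adjusted p = 3.56e-06), and Cdkn1a by 0.87. Irf8 was still at 1259 ± 91.0 CPM at day 4, where it did not pass (edgeR adjusted p = 0.225).

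Granule and receptor genes known to be driven by C/EBP factors gave 20 up and 2 down of 23 tested at day 4 (87.0% and 8.70%; 26.1% and 22.0% of all genes), and 19 up and 3 down at day 6 (32.0% and 31.6% of all genes). Their median was 1.90 at day 4 and 3.54 at day 6, and 3.11 at day 6 on total counts. At day 2, 9 of them had risen (39.1%; 4.18% of all genes were higher), among them Itgam, the CD11b integrin gene (0.62, SE 0.13, edgeR adjusted p = 0.0202), and 2 passed on total counts and 3 in a fit of the 2 groups alone. The secondary granule gene Ltf rose from 36.4 ± 5.29 CPM in untreated cells and 430.5 ± 134 at day 4 to 4859 ± 1031 at day 6 (7.06, SE 0.44, edgeR adjusted p = 9.07e-08). Chil3, a chitinase-like gene of neutrophils and macrophages, rose from 39.4 ± 3.0 to 7588 ± 546.4 (7.59), Mmp9, a gelatinase, from 10.4 ± 2.02 to 503.6 ± 156.2 (5.60) and Itgam from 29.8 ± 1.52 to 1677 ± 153.7 (5.81).

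The 3 genes of this list that fell are proteases of the primary granule. Ctsg fell from 5229 ± 270 CPM in untreated cells to 1615 ± 148.5 at day 4 and 544.7 ± 24.4 at day 6 (-3.26, SE 0.11, edgeR adjusted p = 9.74e-10). Elane was at 8017 ± 771.2 CPM untreated and at 10324 ± 266.4 on day 2, where it did not pass, and fell to 2790 ± 55.5 at day 6 (-1.52, SE 0.10, edgeR adjusted p = 1.75e-07). Prtn3 rose at day 2 (2912 ± 241.3 CPM from 1968 ± 154.3; 0.57, edgeR adjusted p = 0.00732) and fell to 1469 ± 36.0 at day 6 (-0.42, edgeR adjusted p = 0.00281). Of the other primary granule enzymes in the list, Prss57 rose on every day, by 1.36 at day 2, 1.79 at day 4 and 2.54 at day 6 (edgeR adjusted p = 1.29e-07 on day 6), and Mpo was at -0.06 at day 6 and did not pass. Primary granule genes therefore moved in both directions, and no link between any of these genes and the C/EBP levels was tested.

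**Figure D4:**
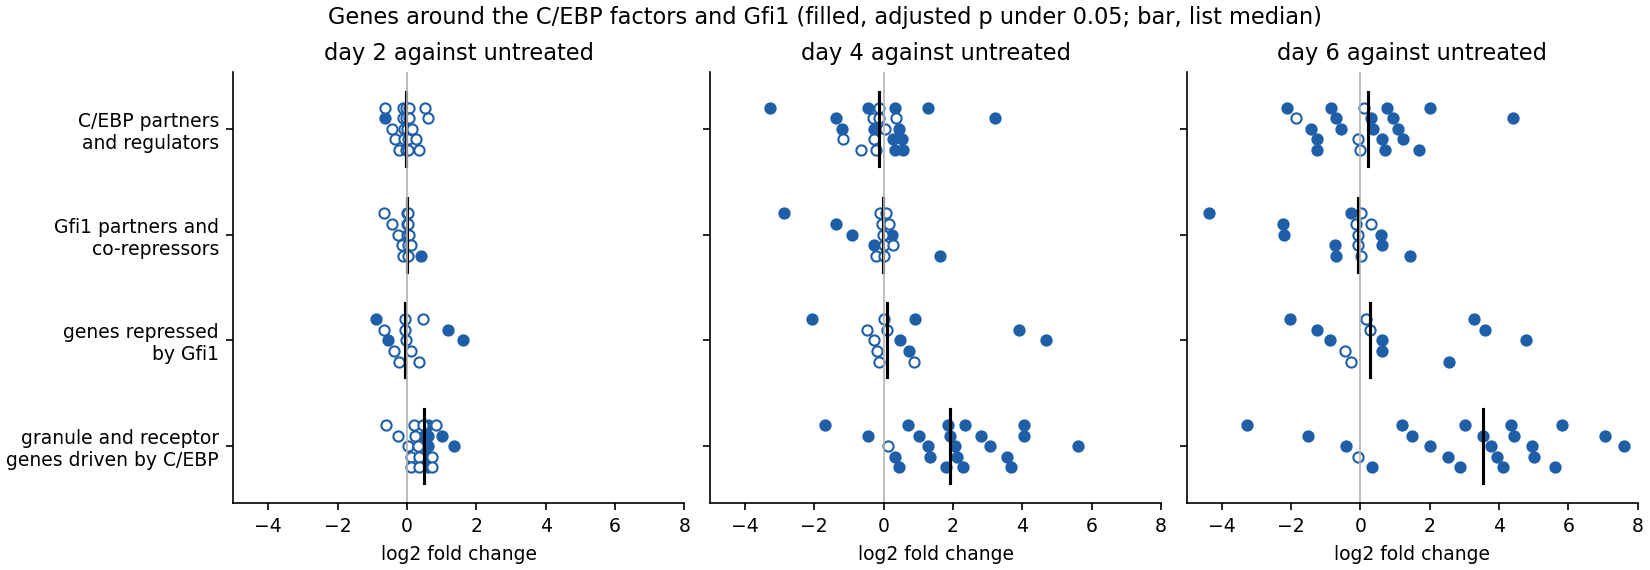
Log2 fold change against untreated (x axis, one panel per day) of each tested gene in the 4 lists (rows); filled points had an edgeR adjusted p under 0.05 and the bar is the list's median. The granule and receptor list moves to a median of 3.54 at day 6, and the medians of the other lists lie between -0.07 and 0.29 there.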

How the data were processed

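RNA of GFP-positive AML410 cells (QIAGEN RNeasy plus mini, standard Illumina libraries, per the labels' protocols) was counted in 8 libraries, grouped by days on Dox. The deposited tables give whole-number counts and a gene length (the other deposited column, used here for RPKM) per Entrez ID, per the file headers. Per the submitters' processing notes, mm10, featureCounts, CASAVA 1.8.2, limma 3.22.0 and edgeR 3.8.2 were used, and no source used here gives the aligner or strand setting. In every gene the third-highest CPM is at least 0.501, so low genes had been removed before deposit and may be missing from the lists. RefSeq (GRCm38.p6) matched 12555 of 12830 IDs; the others hold 2.24% of counts.

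In R 4.3.3, filterByExpr removed 500 genes (0.0267% of counts), and 12330 genes in all 8 libraries entered 1 edgeR 4.0.16 quasi-likelihood fit of group means with TMM scaling (factors 0.849 to 1.18) and Benjamini-Hochberg adjustment. Variation between libraries (biological coefficient) was 8.34% on 4 residual and 7.08 prior degrees of freedom. Totals, and 2 libraries per group, limit precision. Counts of the 2 libraries of a group varied beyond sampling noise in all 4 groups (mean chi-square per degree of freedom 2.93 to 141.8, where sampling noise gives 1), so no pair was taken as copies. The highest value was that of the day 2 pair, where a single gene took 13.3% of replicate 1. Such excess can also be technical, so it does not tell separate mice from technical replicates. The script was tested on simulated data. Alternatives were RLE and total-count scaling, no filter, DESeq2 1.42.0, limma voom (3.58.1), a fit of 2 groups, a replicate block and leaving out each library. The members, lists, motifs and naming rule were chosen with earlier results of these data known. Named genes are the members, Spi1 and Trp53, and up to 4 called genes per direction and list at day 6. The 3 nearest patterns and the nearest tested neighbours of each member are also named. Ddit3, Atf4, Id1, Kdm1a, Hdac1, Mpo and Prss57 were added with their values known, and Mmp8 and Hlf are named as genes shared between lists. Mmp8, Ly6c2, Nkg7 and Tfrc are named as the most abundant gene of a marker sum. A gene that the rule selects is not reported here.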

Additional observations from a re-analysis of the deposited data

How the results depend on the processing

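Over the 7 other settings, 218 of 245 member fold changes kept their direction and side of the threshold. All of these settings but the fit of 2 groups keep all libraries. Over fits leaving out 1 library 243 of 280 did so. Where a value below changed, the cause was not tested. With only the 2 groups compared, which leaves 2 libraries a side, day 2 gave 232 genes called, the Cebpa value of -0.44 was lost and 0 members passed in edgeR (1 at an unadjusted p under 0.05; 1 member by DESeq2 and by limma voom on all libraries). In that fit 4 members passed from day 4 to day 6, as did 4554 of 11758 genes. At day 2 the C/EBP partner and Gfi1 partner lists had 0 called there in edgeR, and the granule list 3. The first 2 of these lists had 3 and 2 unadjusted, 2 and 1 by DESeq2, and 1 and 1 by limma voom. On total counts the day 2 values of Cebpe (-0.18) and Cebpg (-0.03), the day 6 value of Cebpg (-0.13) and the day 4 to day 6 value of Gfi1 (-0.03) reversed. There Cebpb (0.07), Cebpd (0.09 at day 4, 0.29 at day 6), Cebpe at day 6 (0.22) and Cebpg at day 4 (0.30) no longer passed, and Cebpz did at day 6 (-0.54). With total counts 3 members passed at day 6, as did 8725 of 12330 genes. From day 4 to day 6, 4 members passed (Cebpa, Cebpb, Cebpe and Cebpg, no longer Cebpd), as did 3527 genes. On this scale the C/EBP partner list had 2 called at day 2, the Gfi1 partner list 0 (2 unadjusted) and the granule list 2. Other genes that reversed on total counts were Rcor1 at day 4 (-0.01), Tmem189 at day 4 (-0.24) and day 6 (-0.16) and Cebpzos at day 6 (-0.32). DESeq2 lost Cebpe at day 4 (-0.45), called 2 of the C/EBP partner list at day 2 and gave 0.00 for Cebpd at day 2 and for Cebpz from day 4 to day 6, as RLE did for the latter and the unfiltered fit for the former. limma voom put Cebpe at day 2 at -0.00.

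Replicate numbers were not used to pair the libraries in the main fit. Deviations of same-numbered libraries correlated between -0.13 and 0.21 over the 6 pairs of groups, with the highest value for untreated and day 2. Whether some groups shared a batch was not tested. With the replicate block 612, 5787 and 7718 genes were called at days 2, 4 and 6, no member call changed, and Cebpz from day 2 to day 4 was 0.00.

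Leaving out 1 library gave these ranges. At day 2 they were -0.52 to -0.32 for Cebpa, -0.44 to 0.03 for Cebpb, -0.11 to 0.11 for Cebpd, -0.20 to 0.20 for Cebpe and -0.27 to 0.13 for Cebpz. At day 4 they were 0.28 to 0.41 for Cebpd, -0.64 to -0.27 for Cebpe and -0.27 to 0.13 for Cebpz, and at day 6, 0.25 to 0.36 for Cebpg and -0.29 to 0.11 for Cebpz. Cebpz ranged from -0.06 to 0.05 between days 2 and 4 and -0.06 to 0.02 between days 4 and 6, and Gfi1 from -0.01 to 0.34 in the latter. Genes called ranged from 325 (without untreated replicate 2) to 1325 (without untreated replicate 1) at day 2 and from 1726 (without day 6 replicate 2) to 4193 from day 4 to day 6. Members called ranged from 0 (without day 2 replicate 2; 1 unadjusted) to 2 at day 2, 3 to 6 from day 2 to day 4 and 1 to 4 from day 4 to day 6. Called list genes ranged at day 2 from 1 to 2 (C/EBP partners), 2 to 5 (repressed by Gfi1) and 0 (1 or 2 unadjusted in the 3 fits concerned) to 2 (Gfi1 partners), and at day 4 from 3 to 7 (Gfi1 partners). Irf8 at day 4 ranged from -0.34 to 0.00, Tmem189 from -0.04 to 0.07, and Cebpzos from -0.22 to 0.03 at day 4 and -0.11 to 0.30 at day 6. Depth gave each member at least 519 counts in every library, and 2 libraries per group limit the precision.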
